A study of Mus musculus with 6 samples.

Results

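The RNA of 10 genes whose proteins fill the specific and gelatinase granules of neutrophils was followed across 6 libraries of the mouse line 32D. The genes were Ngp, Ltf, Lcn2, Camp, Olfm4, Chil1, Hp, Mmp8, Mmp9 and Lyz2, found by symbol among the 47606 genes listed in each library. Of these, 7 had a mean of at least 1 FPKM (fragments normalised to transcript length and to library size) over the 6 libraries, and Camp, Mmp8 and Mmp9 lay below that level.

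Neutrophils make their granules in waves as they mature. Primary granules with myeloperoxidase and elastase form at the promyelocyte stage, specific granules with lactoferrin form at the myelocyte and metamyelocyte stages, and gelatinase granules form last. The transcription factor C/EBP epsilon, encoded by Cebpe, acts at the passage to the later stages. Mice without Cebpe and people with CEBPE mutations have neutrophils that lack specific granule proteins.

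The cells are an interleukin 3-dependent myeloid progenitor line, grown in 1 ng/mL of that cytokine, and all groups carried dCas9-KRAB, a repressor domain joined to a Cas9 without cutting activity. Groups were the guide sg2 (2 libraries), the guide sg5 (2 libraries) and the empty vector EV (2 libraries), each delivered by lentivirus and followed by puromycin for a week. The series title concerns an enhancer of CEBPE, and its design sets the sg2 and sg5 knock-down against EV. Which sites the guides bind is not stated in the labels used here. The sg5 replicate 2 library is titled sg5, while its source name and genotype name sg2, and it was placed by its title. The labels do not say whether replicates were grown as separate cultures, and a p-value here reflects only the spread among these libraries, which may be technical.

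The lowest values implied a depth of 39600000 and 38300000 fragments for sg2, 31800000 and 39400000 for sg5, and 32400000 and 45800000 for EV. Among 12 markers of the line and its lineage, 11 had a mean of at least 1 FPKM, and Kit, the stem cell factor receptor, was listed at 0 in all 6 libraries. Libraries with the same replicate number deviated together: deviations from the group means correlated across 12929 genes at 0.61 for sg2 and EV, 0.59 for sg5 and EV, and 0.58 for sg5 and sg2. Values are therefore also given within a replicate number. The RNA of Cebpe, the gene of the series title, was lower in every guide library. Cebpe had 14.4 and 18.7 FPKM in sg2 replicates 1 and 2 and 19.4 and 22.7 FPKM in sg5 replicates 1 and 2, against 42.0 and 100.4 FPKM in EV replicates 1 and 2.

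Stretches before the RefSeq starts of 5 of the genes are shown. They carry, or lack, letters that C/EBP factors or PU.1 (Spi1, the myeloid Ets factor) are known to bind. The stretches come from RefSeq windows on GRCm38.p6, which run from 250 bases before to 50 bases after each start. They are cut before any exon in GENCODE M21. Windows were found for 8 of the 10 genes. Capitals mark TTGCNNAA (C/EBP) or GAGGAAGT (PU.1), searched on both strands. No match of either motif overlapped the other. The Olfm4 stretch lies inside the Olfm4 gene of GENCODE M21, whose annotated start differs from the RefSeq start used here. The stretches are chr9:110419558-110419746 (Ngp, plus strand), chr9:111019042-111019270 (Ltf, plus strand), chr9:7558179-7558428 (Mmp8, plus strand), chr14:80000052-80000250 (Olfm4, plus strand) and chr10:117282322-117282522 (Lyz2, minus strand), each written 5′ to 3′ on the strand of its gene.
Ngp: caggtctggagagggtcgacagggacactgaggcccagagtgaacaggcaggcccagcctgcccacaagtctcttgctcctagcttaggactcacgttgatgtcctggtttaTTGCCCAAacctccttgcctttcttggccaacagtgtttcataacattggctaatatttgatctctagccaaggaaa
Ltf: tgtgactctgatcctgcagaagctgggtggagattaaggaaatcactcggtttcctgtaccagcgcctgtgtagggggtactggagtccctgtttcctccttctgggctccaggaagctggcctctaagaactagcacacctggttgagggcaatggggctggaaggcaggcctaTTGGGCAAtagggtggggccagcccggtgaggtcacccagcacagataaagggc
Mmp8: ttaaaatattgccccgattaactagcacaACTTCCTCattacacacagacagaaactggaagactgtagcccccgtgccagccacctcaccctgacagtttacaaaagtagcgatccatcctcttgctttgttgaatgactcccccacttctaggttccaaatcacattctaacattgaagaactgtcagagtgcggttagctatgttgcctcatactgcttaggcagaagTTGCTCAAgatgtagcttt
Olfm4: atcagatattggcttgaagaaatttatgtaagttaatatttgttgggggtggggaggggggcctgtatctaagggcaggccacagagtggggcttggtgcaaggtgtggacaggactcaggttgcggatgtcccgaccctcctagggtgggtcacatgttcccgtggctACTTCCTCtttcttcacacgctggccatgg
Lyz2: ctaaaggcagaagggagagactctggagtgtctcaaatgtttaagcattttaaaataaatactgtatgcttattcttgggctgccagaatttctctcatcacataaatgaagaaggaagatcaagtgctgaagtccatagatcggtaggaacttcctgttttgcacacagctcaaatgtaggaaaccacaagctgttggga

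The C/EBP letters stood in the windows of 4 of 8 genes, Ngp, Ltf, Lcn2 and Mmp8, and in 10.8% of all 32851 windows. Ngp had the letters 138 bases before its start and again 11 bases before it, in a part not printed because GENCODE M21 places an exon there. Ltf had them 75, Lcn2 216 and Mmp8 19 bases before the RefSeq start. The Lcn2 window lies inside the Lcn2 gene of GENCODE M21 and opens in an exon, so no part of it could be printed. The PU.1 letters stood in the windows of 2 of 8 genes, Olfm4 at 81 and Mmp8 at 221 bases before the start, and in 3.20% of all windows. The windows of Lyz2, Camp and Chil1 held neither. These matches describe the letters and are not measured binding.

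The granule genes were lower in the guide libraries, by very different amounts. Against the EV library of the same replicate number, all 4 guide libraries were lower for all 7 genes at or above 1 FPKM and for Mmp8 and Mmp9. Camp rests on too few fragments to be read in this way. All 4 guide libraries were lower in this way for 12.5% of the 12929 genes whose mean reached 1 FPKM. No such share was computed for genes below that level, where Mmp8 and Mmp9 lie. All 4 guide libraries lay below both EV libraries for 5 of the 7 genes at or above 1 FPKM, against 2.56% of those 12929 genes, and for Mmp8 and Mmp9, where the share was 4.13% of the 13197 genes detected below 1 FPKM. Olfm4 passed the 1 FPKM level only through EV, since its guide mean was 0.997 FPKM. Mmp8 was detected only through EV, being listed at 0 in all 4 guide libraries. Its place below EV was set by that, on at most 6.88 fragments, and is not read further. The median difference of the 7 genes, guides minus EV, was -2.16 in log2(FPKM + 1), and over all 12929 genes it was near 0, at -0.0046. Every fold change below is on that log2 scale, which understates changes of low genes. In bulk RNA, fewer cells of a type and less RNA per cell cannot be told apart.

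**Figure D1:**
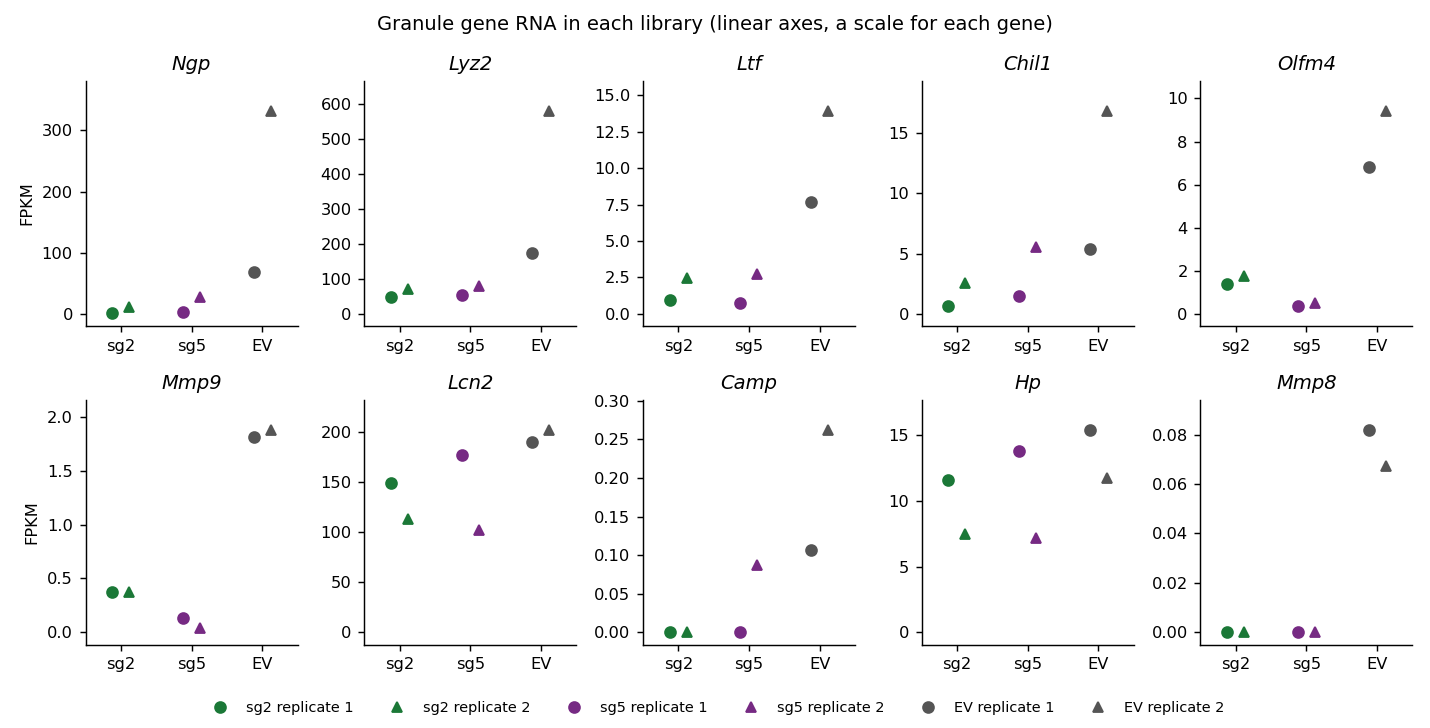
FPKM (vertical axis, linear, a scale for each gene) of the 10 granule genes in sg2, sg5 and EV libraries, with circles for replicate 1 and triangles for replicate 2. Ngp reached 331 FPKM in EV replicate 2 and 27.0 FPKM at most with a guide, while Hp libraries overlapped between guides and EV.

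Among the antimicrobial and iron-binding proteins of specific granules, Ngp stood farthest apart. Ngp, the neutrophilic granule protein, is a cathelicidin-related protein with a cystatin-like fold (ENSMUSG00000032484, GRCm38 chromosome 9, 110419747 to 110423012, plus strand). It had 1.51 and 10.6 FPKM in sg2 and 3.79 and 27.0 FPKM in sg5, against 67.7 and 331 FPKM in EV, replicates 1 and 2 each. The highest guide library was below the lowest EV library. The guide libraries held between 2.23% and 8.16% of the EV library of the same number. Guides minus EV came to -4.25 in log2 units (SE 1.08; limma p 0.00733, Benjamini-Hochberg adjusted p 1.00). With the replicate number as a block, the SE was 0.41 and the adjusted p was 0.0995.

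Ltf encodes lactoferrin, the iron-binding protein that defines specific granules (ENSMUSG00000032496, chromosome 9, 111019271 to 111042767, plus strand). It had 0.927 and 2.44 FPKM in sg2 and 0.718 and 2.70 FPKM in sg5, against 7.67 and 13.9 FPKM in EV. Guide and EV libraries did not overlap. Its log2 difference was -2.16 (SE 0.42), and the limma adjusted p was 1.00 without the block and 0.0310 with it. Ltf was the only granule gene called for guides against EV in the block fit. That call was lost when any 1 of the 6 libraries was left out, with adjusted p between 0.0501 and 0.332, and in the block fit of every gene above 0, with an adjusted p of 0.127.

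Lcn2 encodes lipocalin 2, which binds bacterial siderophores, and it was the most abundant of the genes in the guide libraries (ENSMUSG00000026822, chromosome 2, 32384633 to 32388252, minus strand). It had 149.5 and 114 FPKM in sg2 and 177 and 103 FPKM in sg5, against 190 and 202 FPKM in EV. The sg5 replicate 1 library stood close to EV replicate 1, at 92.9% of it, and sg5 replicate 2 was at 50.7% of EV replicate 2. Its log2 difference of -0.56 (SE 0.24) was not called (limma adjusted p 1.00, or 0.797 with the block).

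Camp, the precursor of the cathelicidin peptide CRAMP, was close to the limit of detection (ENSMUSG00000038357, chromosome 9, 109847379 to 109849617, minus strand). It was listed at 0 in both sg2 libraries, at 0 and 0.0871 FPKM in sg5, and at 0.107 and 0.262 FPKM in EV. Those values amount to about 1.92 fragments in sg5 replicate 2, 1.94 in EV replicate 1 and 6.72 in EV replicate 2. A count of 3 fragments, the limit that a count of 0 allows, corresponds to between 0.117 and 0.169 FPKM for this transcript, so a difference in Camp was not detectable at this depth outside EV replicate 2. Limits given in fragments cover counting error only.

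Olfm4, Chil1 and Hp encode other proteins of the specific granule matrix. Olfm4 encodes olfactomedin 4, a secreted glycoprotein found in a subset of neutrophils (ENSMUSG00000022026, chromosome 14, 79984081 to 80023139, plus strand). It had 1.41 and 1.75 FPKM in sg2 and 0.346 and 0.487 FPKM in sg5, against 6.80 and 9.40 FPKM in EV. Guide and EV libraries did not overlap, and both sg5 libraries were below both sg2 libraries. The log2 difference of the guides was -2.24 (SE 0.37), with a p of 0.000791, the smallest of the 7 tested genes, and a limma adjusted p of 0.639. With the block the adjusted p was 0.278.

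Chil1 encodes a chitinase-like protein that binds chitin without cutting it and is stored in specific granules of human neutrophils (ENSMUSG00000064246, chromosome 1, 134182176 to 134190181, plus strand). It had 0.628 and 2.53 FPKM in sg2 and 1.47 and 5.57 FPKM in sg5, against 5.35 and 16.8 FPKM in EV. The sg5 replicate 2 library was above EV replicate 1, so the groups overlapped. Within a replicate number every guide library was lower, at 11.7% to 33.1% of EV. Guides differed from EV by -1.78 (SE 0.65; limma adjusted p 1.00, or 0.344 with the block). The difference was -2.52 without EV replicate 1 and -1.03 without EV replicate 2, or -1.89 and -1.66 with the block. Without the block, such a fit sets EV of 1 replicate number against guides of both numbers.

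Hp encodes haptoglobin, which binds free haemoglobin and, beside its liver source, is stored in granules of human neutrophils (ENSMUSG00000031722, chromosome 8, 109575128 to 109579172, minus strand). It had 11.6 and 7.51 FPKM in sg2 and 13.8 and 7.19 FPKM in sg5, against 15.4 and 11.7 FPKM in EV. The sg5 replicate 1 library exceeded EV replicate 2, and the ranges overlapped. Its log2 difference of -0.44 (SE 0.29) was not called (limma adjusted p 1.00, or 0.703 with the block). The difference of Hp was -0.25 without EV replicate 1 and -0.62 without EV replicate 2. With the block, the order was reversed, at -0.61 and -0.26.

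The matrix metalloproteases were the least abundant of the granule genes next to Camp. Mmp9 encodes gelatinase B, the enzyme for which gelatinase granules are named (ENSMUSG00000017737, chromosome 2, 164940780 to 164955850, plus strand). It had 0.378 and 0.373 FPKM in sg2 and 0.137 and 0.0425 FPKM in sg5, against 1.81 and 1.88 FPKM in EV. The EV libraries hardly differed from each other, and every guide library was at 20.9% or less of EV. Its implied fragments were 44.6 and 42.6 in sg2, 13.0 and 4.98 in sg5, and 175 and 256 in EV. Mmp9 had a mean of 0.770 FPKM and entered no test at the 1 FPKM level. In the fit of every gene above 0, its log2 difference was -1.22 (SE 0.15), with a limma adjusted p of 0.266.

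Mmp8 encodes neutrophil collagenase, a specific granule enzyme (ENSMUSG00000005800, chromosome 9, 7558456 to 7568485, plus strand). It was listed at 0 in all 4 guide libraries and at 0.0819 and 0.0674 FPKM in EV replicates 1 and 2. The EV values amount to about 5.90 and 6.88 fragments. The limit that a count of 0 allows lay between 0.0340 and 0.0424 FPKM in the guide libraries, below both EV values.

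Lyz2 encodes lysozyme M, which cuts the bacterial cell wall and is found in all neutrophil granule types and in macrophages (ENSMUSG00000069516, chromosome 10, 117277331 to 117282321, minus strand). It had 48.4 and 70.8 FPKM in sg2 and 53.2 and 79.6 FPKM in sg5, against 173 and 578 FPKM in EV. The 4 guide libraries lay close together, and the EV libraries were apart from them and from each other. Guides differed from EV by -2.34 (SE 0.49; limma adjusted p 1.00, or 0.119 with the block). The difference was -3.21 without EV replicate 1 and -1.47 without EV replicate 2, or -2.93 and -1.75 with the block. Of the 31-base words of Lyz2 transcripts, 32.8% also occur in its copy Lyz1, which was listed at 0.121 FPKM in sg2 replicate 2, at 0.172 FPKM in EV replicate 1 and at 0 in the other 4 libraries. Olfm4 shares 4.20% of its words with Gm6999, an overlapping gene on the same strand listed at 0 in all 6 libraries. No transcript word was shared for 7 of the 10 genes, and Hp shared 0.254%.

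**Figure D2:**
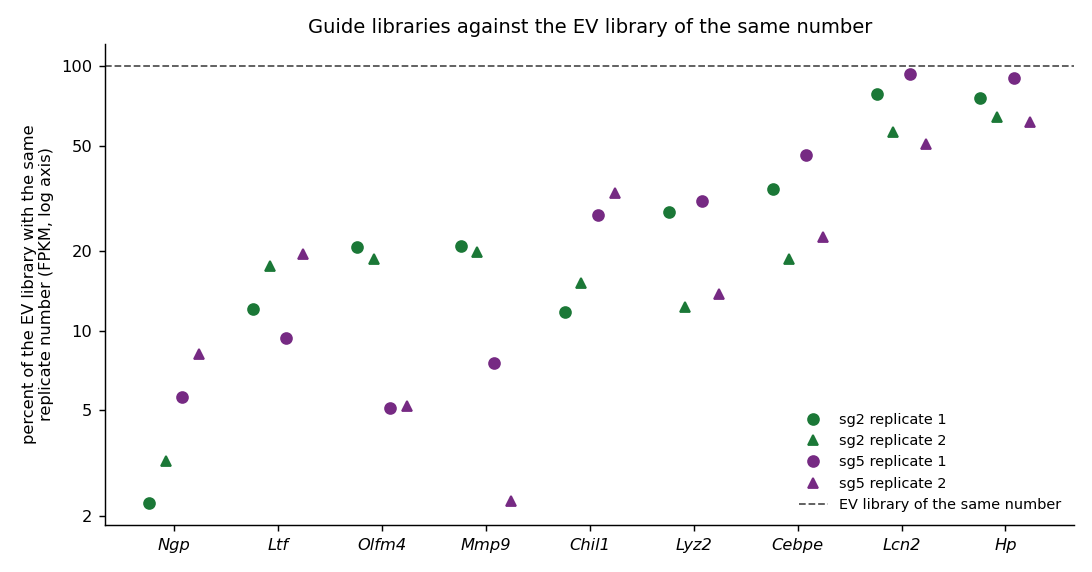
Level in each guide library as a percent of the EV library with the same replicate number (vertical log axis), for 8 granule genes and Cebpe, with Camp and Mmp8 left out because they rest on few fragments. Ngp points lie between 2.23% and 8.16%, and Lcn2 and Hp points lie at 50.7% or above.

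Over all genes, limma called 0 of 12929 for guides against EV (0%) at an adjusted p under 0.05, and so no granule gene. An unadjusted p under 0.05 was reached by 169 genes, of which 101 were lower (0.781% of 12929), and 5 of the 7 tested granule genes were among these. These 5 were Ngp, Ltf, Olfm4, Chil1 and Lyz2. With the replicate block, 5 of 12929 genes were called (0.0387%), 1 of them a granule gene, Ltf, and 7 of 7 tested genes were lower at an unadjusted p under 0.05, against 2.68% of all genes. In the same block fit on protein-coding genes alone, a choice made after seeing the data, 14 of 10581 genes were called lower (0.132%), and 4 of them were granule genes. The block fit of every gene above 0, also chosen after seeing the data, called 5 of 26126 genes and no granule gene. In the protein-coding fit Ltf had an adjusted p of 0.000363, Ngp 0.00167, Lyz2 0.00512 and Olfm4 0.0320, while Chil1 (0.0525), Hp (0.392) and Lcn2 (0.398) did not pass. An exact two-sided permutation test of each gene over the 15 ways to choose the EV pair cannot give a p under 0.0667. That smallest p was reached by 7 genes, with 0.133 for Lcn2 and 0.200 for Chil1 and for Hp. The 7 were Ngp, Ltf, Olfm4, Mmp9 and Lyz2, and also Camp and Mmp8, which rest on few fragments. In each of them the guide libraries lay below both EV libraries, so the test restates that separation. The share of all genes that reach this p was not computed.

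The libraries of the guides were also set against EV guide by guide. Without the block, limma called 1 of 12929 genes for sg2 against EV (0.00773%) and 0 for sg5 against EV (0%), none of them a granule gene. At an unadjusted p under 0.05 the counts were 150 genes for sg2, with 5 of the 7 granule genes, and 176 genes for sg5, with 4 of the 7. With the block, Ngp was called for each guide at the 1 FPKM level: its log2 difference was -4.80 (SE 0.11, adjusted p 0.00478) for sg2 and -3.71 (SE 0.11, adjusted p 0.0157) for sg5. Ngp was 1 of 3 genes called for sg2 (0.0232%) and 1 of 2 genes called for sg5 (0.0155%). Both calls were lost in the block fit of every gene above 0, which called 0 of 26126 genes for sg2 (smallest adjusted p 0.0890, 1072 genes at an unadjusted p under 0.05) and 0 for sg5 (smallest adjusted p 0.0888, 1643 genes). With the block on protein-coding genes alone, 24 of 10581 genes were called for sg2 (0.227%) and 33 for sg5 (0.312%), and Ngp, Ltf, Olfm4, Chil1 and Lyz2 were among them for each guide. Their largest adjusted p in those fits was 0.0168 for sg2 and 0.0162 for sg5, that of Lyz2 each time. The comparisons share the EV libraries.

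**Figure D3:**
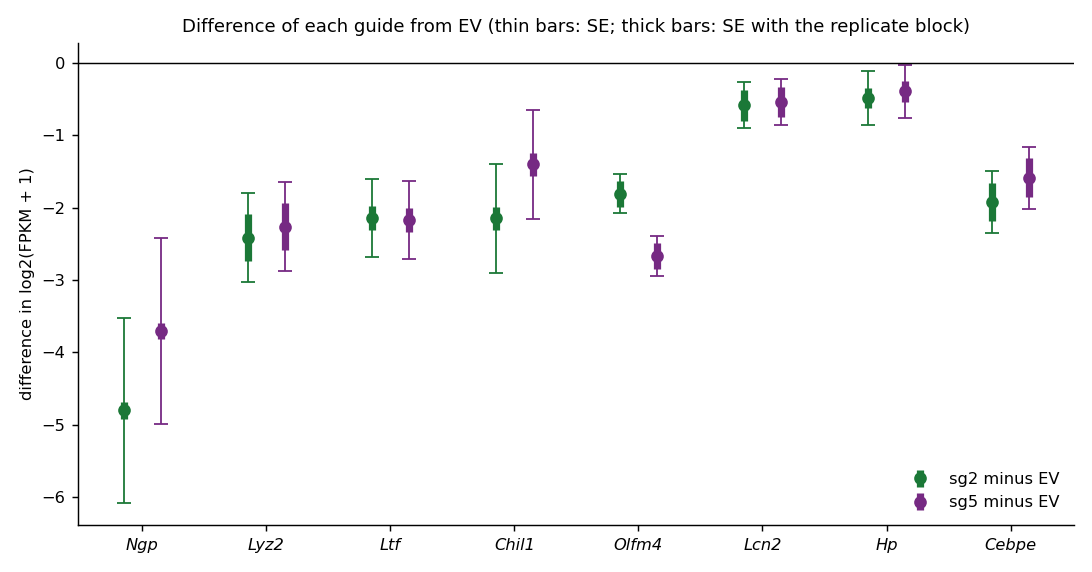
Difference from EV in log2(FPKM + 1) (vertical axis) for the 7 tested granule genes and Cebpe, sg2 left of sg5. Thin bars are the limma SE and thick bars the SE with the replicate block; Ngp lies lowest, at -4.80 for sg2 and -3.71 for sg5, with an SE of 0.11 with the block against 1.28 without it.

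Between the guides, Ngp, Chil1 and Lyz2 were higher with sg5 and Olfm4 and Mmp9 were lower with sg5, within each replicate number. Of the 12929 genes at or above 1 FPKM, 23.5% were higher and 28.1% lower with sg5 in both numbers. Mmp9 lies below that level, and nothing is read from the other 4 genes out of 7 against these shares. Limma called 0 of 12929 genes for sg5 against sg2 (0%). At an unadjusted p under 0.05 the count was 111 genes (0.859%), with 1 granule gene among them. That gene was Olfm4, with a log2 difference, sg5 minus sg2, of -0.86 (SE 0.27, p 0.0242, adjusted p 1.00). With the block, Ngp differed by 1.10 (SE 0.11, adjusted p 0.374), Chil1 by 0.75 (SE 0.16, adjusted p 0.854) and Olfm4 by -0.86 (SE 0.18, adjusted p 0.854), and none was called. On protein-coding genes alone the block fit called 3 of 10581 genes (0.0284%), with Ngp 1 of them at an adjusted p of 0.0480. Cebpe differed by 0.33 (SE 0.43, adjusted p 1.00). Counting sg5 replicate 2 as sg2, as its other labels have it, turned the difference to -0.97 for Ngp and -0.44 for Chil1, and left that of Olfm4 at -0.67. That fit had no block, and its sg5 group was the replicate 1 library alone, while its sg2 group also held replicate 2 libraries. The label and the replicate number are mixed there, and Ngp and Chil1 were higher in replicate 2 of every group. The replicate 1 values do not depend on that label: Ngp had 3.79 FPKM in sg5 and 1.51 FPKM in sg2, and Olfm4 had 0.346 FPKM in sg5 and 1.41 FPKM in sg2.

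Several granule genes also differed by replicate number. For replicate 2 against replicate 1, with the group in the fit, limma called 6089 of 12929 genes (47.1%), of which 2617 were higher and 3472 lower. Rescaling to equal protein-coding sums moved that split to 4013 higher and 2212 lower, and the median of all genes to 0.12 in log2 units, compared with -0.04 as deposited. Of the 7 tested granule genes, 5 were called, and the count and the signs of all 7 held under that scaling. Ngp was higher in replicate 2 by 2.34 (SE 0.09, adjusted p 0.00156), Chil1 by 1.34 (SE 0.13, adjusted p 0.00305), Lyz2 by 0.95 (SE 0.27, adjusted p 0.0413) and Ltf by 0.91 (SE 0.13, adjusted p 0.00708), all in log2(FPKM + 1). Hp fell by 0.60 (SE 0.12, adjusted p 0.0152). Olfm4 (0.25, adjusted p 0.223) and Lcn2 (-0.36, adjusted p 0.152) were not called. Cebpe was higher by 0.60 (SE 0.22, adjusted p 0.0813) and was not called.

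The ratio of replicate 2 to replicate 1 for Ngp was 7.04 in sg2, 7.13 in sg5 and 4.89 in EV. For Chil1 it was 4.03 in sg2, 3.80 in sg5 and 3.14 in EV. Lyz2 went the other way between the groups, with 1.46 in sg2, 1.50 in sg5 and 3.34 in EV. For the difference of the guide effect between the numbers, limma called 0 genes, with 541 at an unadjusted p under 0.05. Of those, 259 of 12929 (2.00%) were lower in number 2, and 2 of the 7 granule genes were among them. They were Lyz2 (-1.18, SE 0.17, p 0.00205, adjusted p 0.472) and Lcn2 (-0.67, SE 0.20, p 0.0281, adjusted p 1.00). Genes of up to 200 nt took 9.03% and 21.5% of summed FPKM in sg2 replicates 1 and 2, 9.67% and 15.4% in sg5, and 6.77% and 16.4% in EV, and the part of this share in the number differences was not tested.

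**Figure D4:**
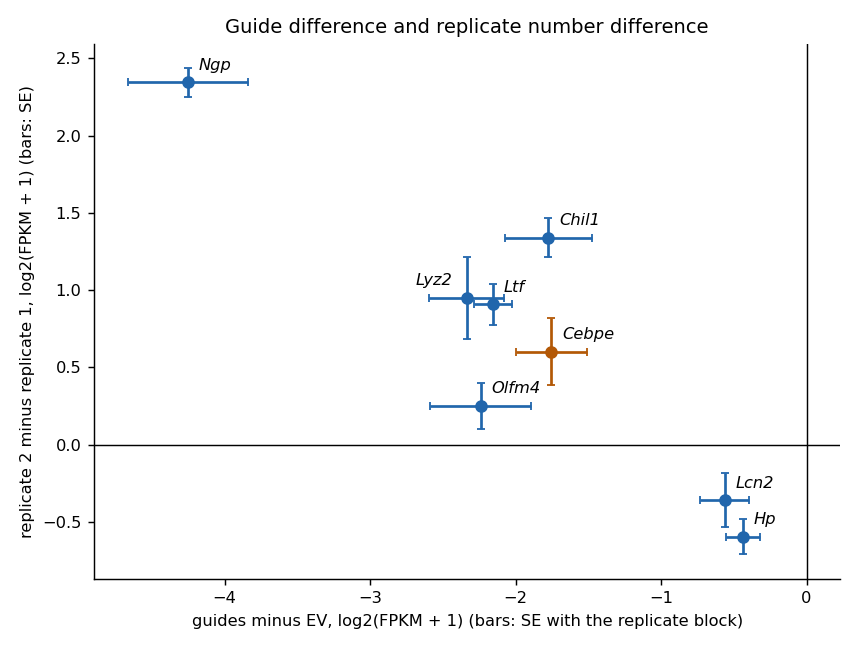
Guide difference (horizontal axis, guides minus EV) and replicate number difference (vertical axis, replicate 2 minus replicate 1), in log2(FPKM + 1), for the 7 tested granule genes in blue and Cebpe in orange. Bars are SEs, horizontally with the replicate block. Ngp lies at -4.25 and 2.34, and Lcn2 and Hp lie below 0 on both axes.

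Across the 6 libraries the genes differed in how steeply they followed the Cebpe level. The slope is in log2(FPKM + 1) of the gene per log2(FPKM + 1) of Cebpe. It is a description with no test, because the 2 EV libraries stand apart from the 4 guide libraries. Cebpe itself differed by -1.75 between guides and EV (SE 0.36; limma adjusted p 1.00, or 0.223 with the block) and was 2.39 times as high in EV replicate 2 as in EV replicate 1. Ngp had the steepest slope, at 2.45 (SE 0.40). Lyz2 followed with 1.33 (SE 0.08), the smallest error relative to its slope. Ltf at 1.14 (SE 0.21), Chil1 at 1.12 (SE 0.24) and Olfm4 at 1.04 (SE 0.32) did not differ from each other beyond their errors. Mmp9 had 0.54 (SE 0.17), Lcn2 0.24 (SE 0.16) and Hp 0.12 (SE 0.20). Camp at 0.13 and Mmp8 at 0.05 rest on few fragments, where the pseudocount of 1 flattens any slope. It also flattens the slopes of Mmp9, Olfm4 and Ltf, which were low with a guide. Their guide means were 12.6%, 12.3% and 15.7% of the EV mean, and that of Lyz2 was 16.8%. The order of the slopes therefore depends in part on abundance. The median slope of the tested genes was 1.12, or 1.24 with a pseudocount of 0.5 and 1.37 with 0.1.

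Leaving out any 1 library moved the slope of Ngp between 2.22 and 3.15 and that of Lyz2 between 1.26 and 1.36, and Ngp was the steepest of the 10 in the fits without EV replicate 1 (2.40) and without EV replicate 2 (3.15). With the replicate number in the fit, the slopes were 2.27 for Ngp, 1.30 for Lyz2, 1.11 for Olfm4, 1.10 for Ltf, 0.99 for Chil1, 0.61 for Mmp9, 0.34 for Lcn2 (SE 0.07) and 0.26 for Hp (SE 0.04). Without the number in the fit, the slope of Hp was 0.07 without EV replicate 1 and 0.32 without EV replicate 2. Of the 15 pairs of libraries, Ngp and Lyz2 were each in the same order as Cebpe in 14, Ltf and Chil1 in 13, Olfm4 and Lcn2 in 11, and Mmp9 and Hp in 9. Many of those pairs set a guide library against EV. Of the 7 pairs inside the guide arm or inside EV, Ngp, Lyz2 and Chil1 followed the order of Cebpe in 6, as did 13.0% of the 12929 genes in 6 or more. Cebpe was higher in replicate 2 than in replicate 1 of each group, and 5 of the 7 pairs set different numbers against each other, so the number and the Cebpe level cannot be told apart there. In the 2 pairs that set sg5 against sg2 within a number, Ngp, Lyz2 and Chil1 followed Cebpe in both. Ltf, Lcn2 and Hp followed it in 1, and Olfm4 and Mmp9 in 0. Cebpe was higher in sg5 in both pairs, so following it in both means sg5 above sg2 in both numbers. That held for 23.5% of the 12929 genes, with 28.1% lower in both, and nothing is read from these counts. The replicate 2 pair also rests on the sg5 library whose labels conflict. Mmp8 had 6 tied pairs of 7 and Camp 3, and their orders are not read further.

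**Figure D5:**
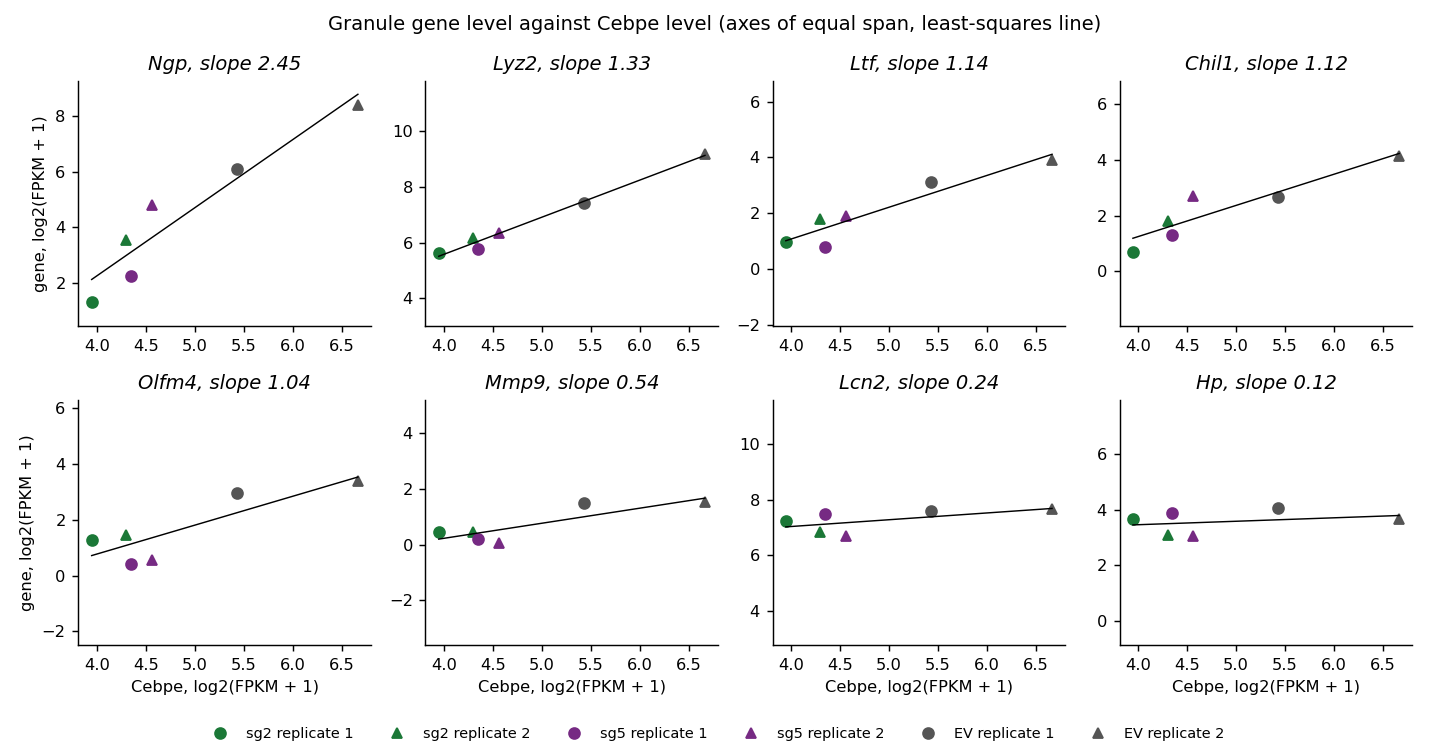
Level of 8 granule genes (vertical axes) against Cebpe (horizontal axes), both in log2(FPKM + 1), with least-squares lines and vertical axes of equal span. Lyz2 points lie close to their line, with a slope of 1.33, and the Hp line has a slope of 0.12, or 0.26 with the replicate number in the fit.

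The median centred profile of the 7 tested granule genes was compared with 3149 other genes of at least 1 FPKM whose range was at least 1 log2 unit. Likeness was the root mean square distance over the 6 libraries, in log2 units. The nearest were Stfa2l1 (0.195), a stefin A-like gene, Cebpe itself (0.218), the small nucleolar RNA gene Gm23772 (0.338), the antisense gene F630028O10Rik (0.340) and Pecr (0.364). Stfa2l1 had 0 and 1.36 FPKM in sg2 and 0.134 and 0.525 FPKM in sg5, against 2.88 and 7.23 FPKM in EV. Gm23772 was listed at 0 in every guide library, against 2.77 and 6.73 FPKM in EV. F630028O10Rik had 0.0980 and 0.983 FPKM in sg2 and 0.512 and 1.33 FPKM in sg5, against 3.93 and 16.9 FPKM in EV. These genes passed the 1 FPKM level only through EV, so their likeness to a profile high in EV was set in part by that filter. Pecr, a peroxisomal enoyl-CoA reductase, had 5.67 and 9.40 FPKM in sg2 and 4.34 and 8.68 FPKM in sg5, against 11.9 and 26.4 FPKM in EV. Among the granule genes themselves, Ltf (0.207) and Lyz2 (0.245) lay nearest to the median profile, while Hp (1.02) and Ngp (1.39) lay farthest.

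Other genes of the late granules, of their membranes and of neutrophils were listed by role. Not all encode granule proteins, and S100a8, S100a9 and Ltb4r1 are not counted as such here. Of these 25 genes, 3 (Chil3, Ptx3 and Retnlg) were at 0 in all libraries and 13 had a mean of at least 1 FPKM. All 13 had a negative difference, guides minus EV, as had 51.3% of all genes, with a median of -0.27 beside the -0.0046 of all genes. Limma called 0 of them, or 1 with the block. At an unadjusted p under 0.05, 2 were lower (0.781% of all genes), or 4 with the block (2.68% of all genes). The called gene was S100a9, which with S100a8 forms calprotectin. S100a9 had 1.07 and 2.97 FPKM in sg2 and 3.98 and 2.47 FPKM in sg5, against 129.9 and 98.4 FPKM in EV, a difference of -5.05 (SE 0.35, adjusted p 0.0811, or 0.0445 with the block). S100a8 had 0.905 and 1.39 FPKM in sg2 and 2.47 and 2.83 FPKM in sg5, against 50.4 and 32.2 FPKM in EV (adjusted p 0.106). Unlike Ngp, these genes were lower in EV replicate 2 than in EV replicate 1.

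The leukotriene B4 receptor gene Ltb4r1 had a difference of -1.03 (SE 0.45), Lrg1, a leucine-rich glycoprotein of granules, -0.58 (SE 0.29), Itgb2, the integrin beta 2 chain, -0.27 (SE 0.14), and Pglyrp1, a peptidoglycan recognition protein, -0.19 (SE 0.21), each with a limma adjusted p of 1.00. The specific granule protein Pglyrp1 had between 346 and 499 FPKM with a guide and 407 and 508 FPKM in EV. For replicate 2 against 1, 7 of the 13 were called, a share close to the 47.1% of all genes: Adam8, Slpi, Tcn2, Itgam, Pglyrp1 and Ltb4r1 were higher, by between 0.36 (Pglyrp1) and 2.46 (Adam8), and Cyba fell by 0.76. Of 10 primary granule genes, limma called none for guides against EV, with or without the block, and 5 of the 10 differences were negative. At an unadjusted p under 0.05 the count was 0 without the block and 1 with it. Prss57 (-0.41, SE 0.25), Elane (-0.22, SE 0.25) and Ctsc (-0.27, SE 0.36) had the smallest p-values without the block, each with an adjusted p of 1.00.

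Marker lists of other cell types were summed in FPKM. The 8 eosinophil genes reached 12.2 to 67.8 with a guide and 81.8 to 262 in EV, so this sum moved with the granule genes. It was mostly Epx, eosinophil peroxidase, at 8.77 and 55.1 FPKM in sg2 and 35.1 and 61.6 FPKM in sg5, against 75.5 and 252.8 FPKM in EV. Only Epx and Siglecf had a mean of at least 1 FPKM, and Ear1 and Ear2 were listed at 0. Siglecf had 3.31 and 5.64 FPKM in sg2, 5.78 and 5.90 FPKM in sg5, and 4.55 and 8.41 FPKM in EV. Its sg5 replicate 1 library was thus above EV replicate 1. Sums of the other lists overlapped between guides and EV when the numbers are pooled. Monocyte and macrophage genes, of interest for Lyz2, summed to 86.1 to 169 with a guide and 99.6 to 151 in EV, with 3 of 10 at 1 FPKM or more and Marco and C1qa at 0. Mast cell and basophil genes (7 of 10 at 1 FPKM or more) summed to 2259 to 3638 with a guide and 1554 to 3090 in EV. Within each number this sum was higher in every guide library, the opposite direction to the granule genes. It was 2259 in sg2 and 3164 in sg5 against 1554 in EV for replicate 1. For replicate 2 it was 3425 in sg2 and 3638 in sg5 against 3090 in EV. Most of it was Fcer1a, at 1733 and 2520 FPKM in sg2, 2495 and 2767 FPKM in sg5, and 1081 and 2412 FPKM in EV. Cpa3, Prss34, Ms4a2 and Gata2 were also higher in every guide library within a number. In replicate 2, Hdc had 1.05 FPKM in sg2 and 1.22 FPKM in sg5 against 1.99 FPKM in EV. Mcpt8 had 1.17 FPKM in sg2 replicate 2 against 1.61 FPKM in EV. Erythroid genes (3 of 8) summed to 13.1 to 33.0 with a guide and 16.9 to 22.1 in EV, and lymphoid genes (2 of 8) to 21.9 to 73.2 with a guide and 39.7 to 116 in EV. The part of these other cell type markers in the granule gene differences was not tested.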

How the data were processed

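RNA from 6 libraries of 32D cells was sequenced after a TruSeq RNA preparation on a HiSeq 4000, per the labels' protocols. The authors deposited 1 table of FPKM values per library. The builds GRCm38 and mm10 and the tools DESeq2 and kallisto 0.43.0 are named in the submitters' processing notes, which do not say how FPKM were made from estimates. The deposited positions were left aside, and gene IDs were looked up in GENCODE M21 (GRCm38), which held 47187 of 47606 of them.

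Depth was read from the steps of low FPKM values in 752 single-transcript genes over 4000 nt, at an assumed fragment length of 200 nt. Between 90.5% and 97.3% of those values were whole within 0.15 fragments. FPKM are not counts, so no count model was run.

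Genes whose mean reached 1 FPKM were tested as log2(FPKM + 1) with limma 3.58.1 (R 4.3.3, intensity trend) and Benjamini-Hochberg adjustment over all genes tested, at 0.05. Guides were fitted as 1 group of 4 against 2 EV libraries, and a fit of 3 groups gave each guide. The replicate numbers were treated as pairing the libraries because deviations correlated over 0.1 for every pair of groups. That comes from the data and not from the labels. A fit that takes the number as a block was an alternative. The limma steps were checked on simulated data. Slopes, permutations and figures used scipy 1.17.1, numpy 2.4.6, matplotlib 3.10.9 and pandas 2.3.3 in Python 3.11.15.

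The genes and lists were chosen with earlier results of these data known. Named beside the 10 genes and Cebpe are copies above 0, and listed late granule or neutrophil genes called or among the 6 of smallest p. Also named are the 3 primary granule genes of smallest p and the 5 genes nearest to the median profile. Other genes named, such as Epx, were chosen after their values were seen.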

Additional observations from a re-analysis of the deposited data

Results flagged for a closer look

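Camp in sg5 replicate 2, at 0.0871 FPKM, stood apart from the other 3 guide libraries, which were listed at 0. That value amounts to about 1.92 fragments. With 10 genes checked in this way (Mmp8, at 0 in all 4, could not be) and about 1 in 20 groups flagged by chance, a single flag is not unusual.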

How the results depend on the processing

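The 7 tested granule genes kept a negative difference, guides against EV, in every alternative tried, and 144 of 145 such values (leaving aside the fits added after seeing the data) stayed on the same side of the threshold, the exception being Ltf with the replicate block (-2.16, adjusted p 0.0310). The 0 genes called for guides against EV became 6 with every gene above 0, 1 with protein-coding genes only, 4 without a trend and 5 with the replicate block, and 0 to 1 when a library was left out, or 0 to 2 with the block. Alternatives added after seeing the data gave 18 (block, protein-coding genes) and 5 (block, every gene above 0). Granule genes called went to 1 with the block and 4 with the block on protein-coding genes, and were 0 with the block over every gene above 0 and with the block without any 1 library. For sg2 against EV, 1 became 0 with every gene above 0, with a mean of 5 FPKM, with protein-coding genes, with the second sg5 library as sg2, without any 1 library and with the block over every gene above 0. It became 3 with the block and 24 with the block on protein-coding genes. For sg5 against EV, 0 became 18, 2 and 33 with every gene above 0, the block, and the block on protein-coding genes. For sg5 against sg2, 0 became 23 with every gene above 0 and 3 with the block on protein-coding genes. The 6089 genes for replicate 2 against 1 became 3205 to 4365 when a library was left out, with fewer samples in the fit. The difference between the numbers gave 243, 2 and 27 genes with every gene above 0, with protein-coding genes and without a trend, against 0. The median difference was -1.50 and the median slope 0.79 over all 10 genes, in which the 3 low ones enter, against -2.16 and 1.12 over 7. Without 1 library, the median difference ranged from -2.52 to -1.47, or from -2.18 to -1.75 with the block. The cause of the other changes was not tested. Camp and Mmp8 are limited by depth, at 6.88 fragments or fewer in each library.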

Other observations

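Low late granule and surface genes of the longer list entered no test, and those given here were chosen after their values were seen. Ly6g, the surface antigen used to mark mouse granulocytes, had 0.0334 and 0 FPKM in sg2 and 0 in both sg5 libraries, against 0.574 and 1.44 FPKM in EV. Fpr1, a receptor for formyl peptides, was listed at 0 in all 4 guide libraries and at 0.108 and 0.0763 FPKM in EV. Mcemp1, a membrane protein of myeloid cells, had 0.580 and 0.300 FPKM in sg2 and 0.649 and 0.348 FPKM in sg5, against 0.850 and 0.864 FPKM in EV. Cd177, a neutrophil surface glycoprotein, went with the replicate number in all groups, with 0.0301 and 0.736 FPKM in sg2 replicates 1 and 2, 0.137 and 0.925 FPKM in sg5, and 0.0367 and 0.683 FPKM in EV. Mpo, the myeloperoxidase of primary granules, went the opposite way, with 41.5 and 12.3 FPKM in sg2, 123 and 14.8 FPKM in sg5, and 150.5 and 13.0 FPKM in EV.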
